A study of Mus musculus with 22 samples.

Results

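The nuclear genes of the mitochondrial respiratory chain were examined for hnRNP A1 binding footprints in mouse spinal cord. Members were all protein-coding genes of the GRCm38 GENCODE annotation whose symbol begins with Ndufa, Ndufb, Ndufc, Ndufs, Ndufv, Uqcr, Atp5, Cox4i, Cox5, Cox6, Cox7 or Cox8, together with Sdha, Sdhb, Sdhc and Sdhd. The rule used names only and found 94 of 21951 protein-coding genes, of which 46 belong to complex I, 4 to complex II, 8 to complex III, 18 to complex IV and 18 to complex V. It takes in 8 Ndufaf assembly factors of complex I, the supercomplex assembly gene Cox7a2l, and 2 genes filed by name alone, Ndufa4l2 and Atp5s. Ndufa4, now known as a subunit of complex IV, is counted in complex I by its symbol. Atp5o is annotated in a pair of versions, the second of which runs through Cryzl1 and Itsn1 (chr16:91684398-91926982), and values are also given without it.

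The respiratory chain passes electrons from NADH through complex I, or from succinate through complex II, to complex III, cytochrome c and complex IV, and complex V uses the resulting proton gradient to make ATP. Most of its subunits are encoded in the nucleus and imported, and the rest are encoded by mitochondrial DNA, so the complexes need both sets of transcripts. hnRNP A1 is a mainly nuclear RNA binding protein that takes part in splicing, transport and translation of messenger RNA, and UAG is its best known core motif.

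The study asked how binding of hnRNP A1 to RNA differs in experimental autoimmune encephalomyelitis (EAE), an immune model of multiple sclerosis, and used CLIPseq, in which protein and RNA are crosslinked by UV light and the RNA bound to the protein is precipitated and sequenced. Spinal cords came from 10 female wild-type C57Bl/6 mice, 3 of them naïve and 7 with EAE after immunization with the myelin peptide MOG(35-55), given in complete Freund's adjuvant with 100 ng of pertussis toxin, and all were taken 15 days after clinical onset or as age-matched controls. Age at immunization is given as 12 weeks in the protocol and as 8 weeks in the design text. By clinical score, EAE mice 3, 4 and 7 were mild (1.5, 1.5 and 1.0) and EAE mice 1, 2, 5 and 6 were severe (2.5, 3.0, 2.5 and 3.0). The naïve mice received no adjuvant or toxin as far as the labels say, so effects of the adjuvant and of the autoimmune response cannot be told apart.

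A footprint here is a genomic interval to which an assembled read contig was aligned, after intervals found in the input or control IgG libraries were subtracted. No read count, score or strand accompanies a footprint, so the depth behind each footprint is unknown and overlapping genes cannot be told apart. The lists held 17119, 17454 and 17494 footprints in naïve mice, 14534, 9751 and 24433 in EAE mice 3, 4 and 7 of the mild group, and 2670, 209, 31870 and 673 in EAE mice 1, 2, 5 and 6 of the severe group. EAE mice 2 and 6 therefore stood apart as short lists and EAE mouse 5 as the longest, and EAE against naïve comparisons per 1000 footprints are given with and without EAE mice 2 and 6. The study describes EAE mouse 5 as an outlier of the severe group, in remission 2 days before the experiment ended. Its analysis of reproducibility also marked that mouse as a concern. Neuron markers were footprinted in at least 2 mice of a group for 10 of 10 genes in both naïve and mild EAE mice, oligodendrocyte markers for 6 and 7 of 8 and astrocyte markers for 4 and 6 of 7, and no footprint lay on any of 6 skeletal muscle markers. In at least 2 severe EAE mice these were 3 of 10 neuron, 5 of 8 oligodendrocyte and 5 of 7 astrocyte markers. In tissue of mixed cells, fewer cells of a type and less bound RNA per cell cannot be told apart.

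The stretches of member transcripts covered in the most mice show what these footprints look like. They are given 5′ to 3′ on the strand of the gene, from the GRCm38 genome, with every TAG (UAG in RNA) in capitals. Cox4i1, Cox6b1, Atp5f1, Sdhb and Ndufb8 are 5 of the 6 members with a stretch shared by 5 or more mice (the other, Atp5a1, is described with complex V by its length alone). Cox5b and Cox6c are shown because theirs were found in EAE mice and in no naïve mouse, and Ndufaf5 because it held the intronic stretch shared by the most mice. The first 7 lines are coding sequence and the last is intronic.
Cox4i1 (chr8:120673221-120673286, plus strand): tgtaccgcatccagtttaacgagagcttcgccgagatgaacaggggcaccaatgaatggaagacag
Cox6b1 (chr7:30624528-30624579, minus strand): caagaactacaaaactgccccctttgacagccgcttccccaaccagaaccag
Atp5f1 (chr3:105943690-105943794, minus strand): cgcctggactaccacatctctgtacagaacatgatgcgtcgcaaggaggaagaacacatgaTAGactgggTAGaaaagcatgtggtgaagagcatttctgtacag
Sdhb (chr4:140979025-140979087, plus strand): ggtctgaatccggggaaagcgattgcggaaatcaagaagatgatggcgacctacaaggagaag
Ndufb8 (chr19:44554942-44555012, minus strand): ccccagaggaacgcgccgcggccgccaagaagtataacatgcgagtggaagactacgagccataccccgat
Cox5b (chr1:36693207-36693278, plus strand): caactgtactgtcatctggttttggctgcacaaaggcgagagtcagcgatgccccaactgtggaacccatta
Cox6c (chr15:35935306-35935413, minus strand): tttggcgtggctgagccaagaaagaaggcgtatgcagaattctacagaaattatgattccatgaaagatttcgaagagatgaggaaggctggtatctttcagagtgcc
Ndufaf5 (chr2:140176232-140176315, plus strand): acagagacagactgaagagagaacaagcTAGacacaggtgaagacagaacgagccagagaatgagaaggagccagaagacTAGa

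Of these coding stretches, the one in Atp5f1 held 2 TAG and the others held none. The Ndufaf5 stretch also held 2 TAG and lies wholly in soft-masked repeat sequence of the reference. The Cox4i1 stretch, 66 nt long, was covered in 7 mice, 2 naïve, 3 mild EAE and 2 severe EAE, and a second annotated gene overlaps it. The Cox6b1 stretch was covered in 6 mice, 2 of them naïve, and the Ndufb8 stretch in all 3 naïve mice, 1 mild EAE mouse and 1 severe EAE mouse. The Cox5b and Cox6c stretches were each covered in 3 mild EAE mice and in EAE mouse 5. Cox6c has 4 annotated pseudogenes at least 90% identical to it over 100 nt or more, and Atp5f1 has 2. Cox4i1, Cox6b1, Sdhb, Ndufb8, Cox5b and Ndufaf5 have none.

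In all, 73 of the 94 members held a footprint in some mouse, or 77.7%, against a background of 45.6% of all protein-coding genes. The share in any mouse depends on the longest lists, and the share in at least 6 of 10 mice was 9.57% of members (9 genes) against 10.2% of all protein-coding genes. These 9 included the alpha and beta subunits of ATP synthase, Atp5a1 and Atp5b, and the second Atp5o annotation. Also among them were the succinate dehydrogenase flavoprotein Sdha and iron-sulfur subunit Sdhb, and the cytochrome oxidase subunits Cox4i1, Cox6a1 and Cox6b1. No member was footprinted in more than 7 mice, and 15 were footprinted in exactly 1. The other 21 members held no footprint in any mouse. They include isoforms known from muscle, testis or lung (Cox6a2, Cox7a1, Cox8b, Cox6b2, Cox7b2, Cox8c and Cox4i2), but also broadly expressed subunits such as Ndufa1, Ndufa7, Ndufa9, Ndufb2, Ndufb4, Ndufs6 and Atp5l and the assembly genes Ndufaf1, Ndufaf4, Ndufaf7 and Ndufaf8, with Atp5mpl, Atp5s and Ndufa4l2 completing the list. Since sites seen in input or IgG were removed, no footprint does not mean no binding.

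Members footprinted numbered 23, 17 and 28 in naïve mice 1, 2 and 3, 32, 19 and 44 in EAE mice 3, 4 and 7 of the mild group, and 8, 0, 51 and 3 in EAE mice 1, 2, 5 and 6 of the severe group. The group ranges overlapped throughout, and both the lowest and the highest values were in severe EAE. Mild EAE exceeded naïve by 9.0 members (31.7 ± 12.5 against 22.7 ± 5.51, SD, n = 3 each; two-sided exact permutation p = 0.4, adjusted 0.6 over 3 comparisons). The difference ran from 2.83 without EAE mouse 7 to 15.3 without EAE mouse 4, and per 1000000 mapped reads it turned to -0.801. Severe EAE minus naïve was -7.17 (15.5 ± 23.9, n = 4; exact p = 0.714), which turned to 6.83 above it with only the 2 severe mice that had at least 1000 footprints and was -19.0 without EAE mouse 5. With 3 mice against 3 the exact test cannot go below p = 0.1, and with 4 against 3 not below 0.0286.

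**Figure D1:**
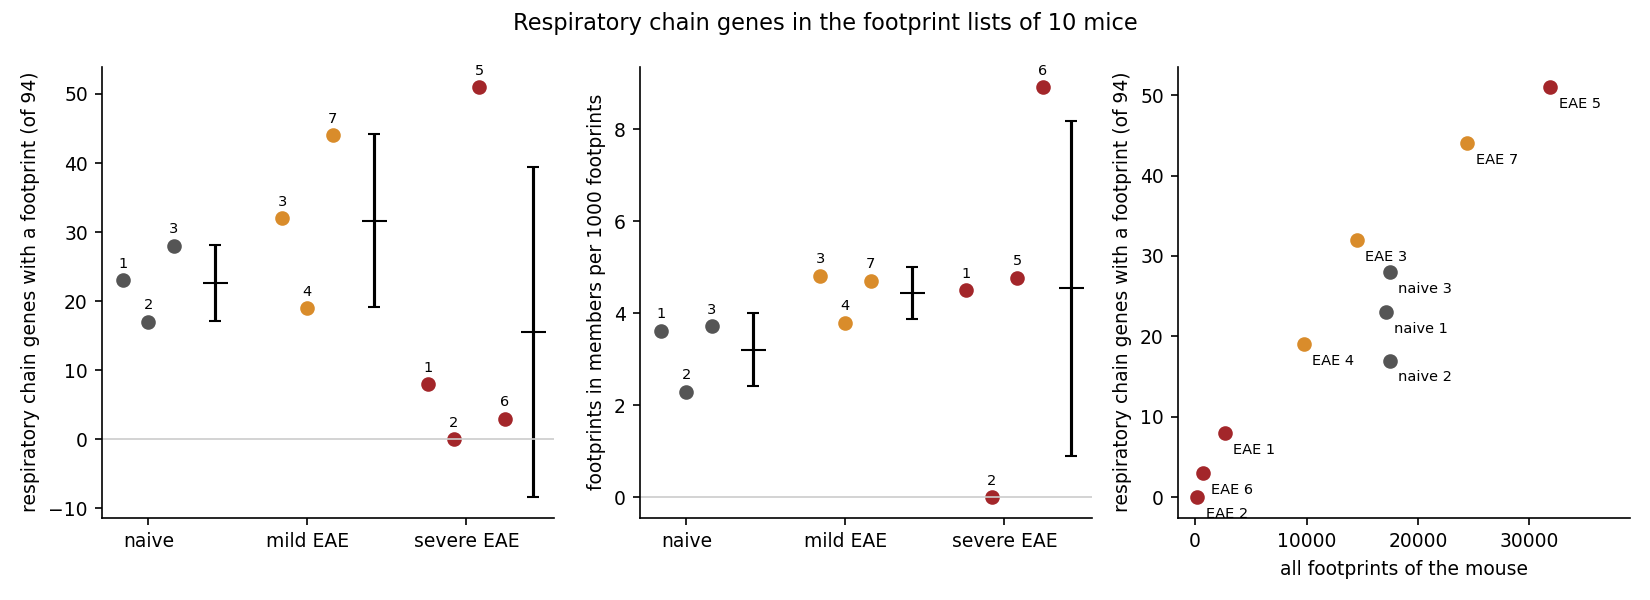
Each point is 1 mouse, for 3 naïve, 3 mild EAE and 4 severe EAE mice. The left panel gives members footprinted and the middle panel footprints in members per 1000 footprints of the same mouse, each line with its bar being the group mean ± SD. The right panel sets members footprinted against all footprints of the mouse. Severe EAE spans 0 to 51 members, from EAE mouse 2 to EAE mouse 5, and holds the lowest and the highest value of each panel.

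Relative to the length of each list, footprints in members made up 3.62, 2.292 and 3.72 per 1000 footprints in naïve mice and 4.82, 3.79 and 4.71 in mild EAE mice 3, 4 and 7. Every mild EAE mouse was above every naïve mouse, a difference of 1.23 per 1000 with the smallest p this design allows (exact p = 0.1, adjusted 0.3). Without the second Atp5o annotation the ranges overlapped, the difference was 1.33 and the exact p was 0.2. The severe EAE values of 4.49, 0, 4.77 and 8.92 rest on 12, 0, 152 and 6 footprints in EAE mice 1, 2, 5 and 6, and did not separate from naïve (difference 1.34, exact p = 0.6) or mild EAE (0.106, exact p = 0.914).

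Over all 10 mice, EAE (0 to 8.92 per 1000) and naïve mice overlapped (difference 1.29, exact p = 0.45, and exact p = 0.4 without the second Atp5o annotation). EAE mice 2 and 6 held the lowest and the highest of these values. In the 8 mice with at least 1000 footprints, a restriction added after the data were seen, all 5 EAE mice (3.79 to 4.82 per 1000) were above all 3 naïve mice (2.292 to 3.72; exact p = 0.0179, the smallest possible). Without the second Atp5o annotation the ranges were 2.97 to 4.49 and 1.60 to 3.26 (exact p = 0.0357). The lists of these mice differed in make-up: 44.4%, 47.5% and 33.8% of all footprints lay outside exons in naïve mice against 16.02% to 30.5% in these EAE mice. Per 1000 exonic footprints members gave 5.16 to 6.42 in EAE and 3.60 to 6.51 in naïve mice, which overlap (exact p = 0.357, and 0.583 over 10 mice). Cytosolic ribosomal protein genes gave 3.44 to 5.94 per 1000 footprints in naïve mice and 6.75 to 11.6 in these EAE mice (exact p = 0.0357, and 0.0917 over 10 mice). Per 1000 exonic footprints their ranges overlapped as well, at 5.89 to 8.98 and 8.75 to 16.6 (exact p = 0.0893, and 0.0917 over 10 mice). Whether members and ribosomal protein genes differed in this was not tested.

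Footprinted in at least 2 naïve mice were 19 members (20.2%), against a background of 18.3% of protein-coding genes. In at least 2 mild EAE mice there were 26 members (27.7%, background 17.3%), and in at least 2 severe EAE mice 8 members (8.51%, background 5.86%). The severe EAE set rested on EAE mouse 5, without which only Sdha remained in 2 mice. Leaving out 1 mouse left 10 to 13 members in naïve and 12 to 21 in mild EAE mice. Of the 73 members with any footprint, 9 were in at least 2 mild EAE mice and in no naïve mouse (12.3%, background 4.49%), and 3 in at least 2 naïve mice but not in mild EAE (4.11%, background 4.73%). The first were Cox5a, Cox5b, Cox6c, Ndufaf5, Ndufb7, Ndufb9, Ndufb11, Ndufs8 and Uqcrq, and the second Atp5h, Ndufs4 and Uqcrc2. The first pattern was not particular to members: cytosolic ribosomal protein genes gave 14 of 92 with any footprint. Tricarboxylic acid cycle genes gave 2 of 15 and mitochondrial carriers and pores 2 of 7. Glycolysis gave 1 of 16 and assembly factors outside the naming rule 0 of 15. In at least 2 naïve and no severe EAE mice were 4 members (background 5.64%), in at least 2 severe EAE and no naïve mice 3 (background 1.34%), and in at least 2 mild EAE and no severe EAE mice 4 (background 3.86%).

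**Figure D2:**
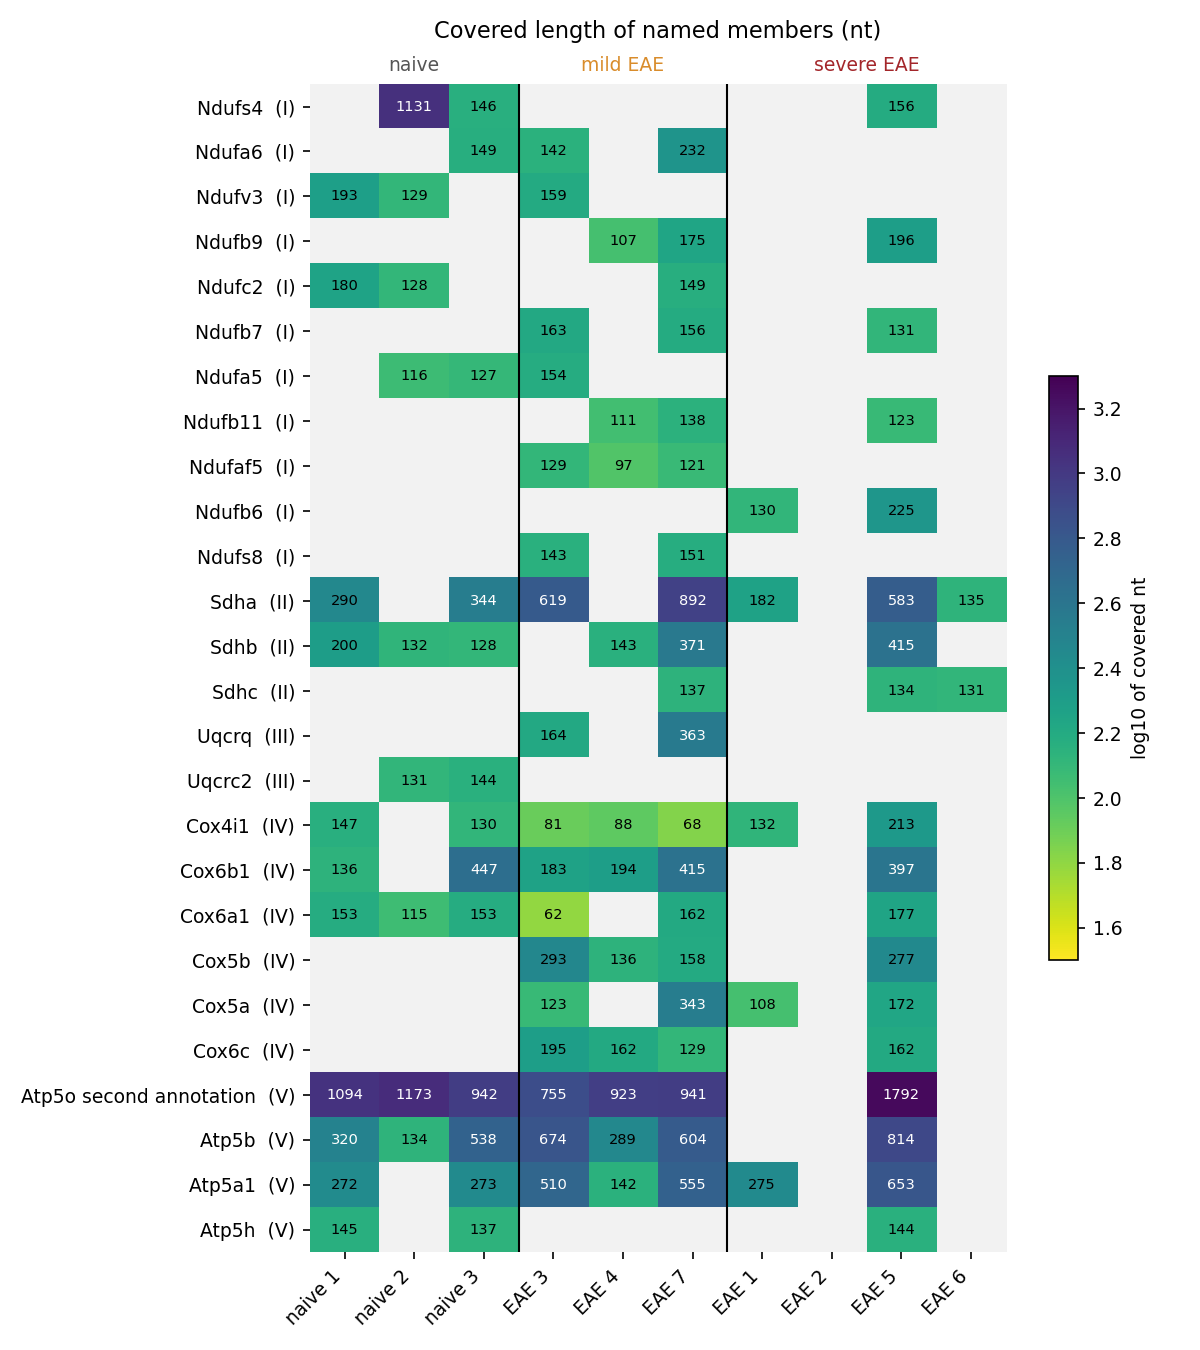
Rows are 26 of the 27 members chosen by the stated rule, grouped by complex, columns are the 10 mice, and colour and printed values give the nucleotides of each gene covered by footprints. Cox5a, Cox5b and Cox6c are at 0 in all 3 naïve mice and are covered in 4 EAE mice each, and EAE mouse 5 holds most of the severe EAE coverage.

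Complex I, the NADH dehydrogenase that starts the chain, held 19, 21 and 15 footprints in naïve mice, 21, 12 and 40 in the mild EAE group and 4, 0, 44 and 3 for severe EAE mice 1, 2, 5 and 6. It gave 1.06 ± 0.179 per 1000 footprints in naïve (n = 3), 1.44 ± 0.203 in mild EAE (n = 3) and 1.83 ± 1.88 in severe EAE (n = 4), the last set by 3 footprints of EAE mouse 6 in Ndufa13, whose span overlaps Yjefn3. EAE and naïve mice did not separate over all 10 mice (difference 0.607, exact p = 0.508, adjusted 0.76 over 5 complexes). In the mice with at least 1000 footprints EAE was higher (1.23 to 1.64 against 0.857 to 1.203; exact p = 0.0179, adjusted 0.0446), where EAE mouse 1 rests on 4 footprints. Per 1000 exonic footprints complex I was not higher in EAE (exact p = 0.714, and 0.683 over 10 mice).

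In naïve and in mild EAE mice alike, 8 genes of complex I were found in at least 2 mice. Those in naïve mice included Ndufa5, Ndufa10, Ndufb8, Ndufc2, Ndufs4 and Ndufv3 with the assembly factor Ndufaf2, and those in mild EAE mice Ndufa6, Ndufb7, Ndufb9, Ndufb10, Ndufb11 and Ndufs8 with the assembly factor Ndufaf5. Ndufs8, a core subunit that carries iron-sulfur clusters, was covered by 143 nt in EAE mouse 3 and 151 nt in EAE mouse 7 and by none elsewhere. The accessory membrane-arm subunits Ndufb7, Ndufb9 and Ndufb11 each had 2 mild EAE mice and EAE mouse 5, with 107 to 196 nt. These sets changed with single mice, since most of their genes were present in exactly 2 of 3.

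Among the genes seen in naïve mice, Ndufa5 was covered by 0, 116 and 127 nt, Ndufc2 by 180, 128 and 0 nt, and Ndufv3 by 193, 129 and 0 nt, and each was also found in 1 mild EAE mouse and in no severe EAE mouse. Ndufs4, an accessory subunit whose loss causes Leigh-like disease in mice, had 0, 1131 and 146 nt in naïve mice, none in mild EAE and 156 nt in EAE mouse 5. The 1131 nt were a single intronic footprint of naïve mouse 2, the longest on any member, and in naïve mouse 3 the footprints were coding. Ndufb6 was found in EAE mice 1 and 5 alone, with 130 and 225 nt. Ndufa6 had 149 nt in naïve mouse 3 and 142 and 232 nt in EAE mice 3 and 7. Ndufaf5, which hydroxylates Ndufs7 during assembly, had 129, 97 and 121 nt in the 3 mild EAE mice and none in the others, and all 3 footprints overlapped the repeat stretch printed above.

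Complex II, succinate dehydrogenase, has 4 subunits, all nuclear, and also works in the tricarboxylic acid cycle. Sdha was covered by 290, 0 and 344 nt in naïve, 619, 0 and 892 nt in mild EAE and 182, 0, 583 and 135 nt in severe EAE mice, so that it was found in 3 of 4 severe mice, the most of any member. Sdhb had 200, 132 and 128 nt in naïve mice, 0, 143 and 371 nt in mild EAE mice and 415 nt in EAE mouse 5. The membrane anchor Sdhc was found in 3 EAE mice, with 137 nt in EAE mouse 7, 134 nt in EAE mouse 5 and 131 nt in EAE mouse 6, and the 3 footprints lay at nearly the same place in its UTR (chr1:171129322-171129452 in EAE mouse 6). Sdhd was found in EAE mouse 5 alone. Per 1000 footprints the complex gave 0.212 ± 0.0899 in naïve, 0.34 ± 0.235 in mild EAE and 1.40 ± 2.06 in severe EAE, where EAE mouse 6 alone was at 4.46 from 3 footprints (EAE minus naïve 0.736, exact p = 0.442; 0.224 and exact p = 0.196 in mice with at least 1000 footprints).

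Complex III, which passes electrons from ubiquinol to cytochrome c, held 11 footprints in naïve, 14 in mild EAE and 12 in severe EAE mice in all, over 8 genes, every one of which was found in some mouse. EAE and naïve mice gave nearly the same share (0.209 ± 0.197, n = 7, and 0.211 ± 0.118, n = 3, per 1000; exact p = 1.0), and in mice with at least 1000 footprints the difference was 0.0811 (exact p = 0.429). The core protein Uqcrc1 had 150 nt in naïve mouse 3, 198 and 289 nt in EAE mice 3 and 7 and 498 nt in EAE mouse 5. Its partner Uqcrc2 was found in naïve mice 2 and 3 alone (131 and 144 nt, the first intronic), and the small subunit Uqcrq in EAE mice 3 and 7 alone (164 and 363 nt).

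Complex IV, cytochrome c oxidase, hands the electrons to oxygen, and its nuclear subunits surround a core encoded by mitochondrial DNA. It held 7, 1 and 9 footprints in naïve mice, 15, 6 and 20 in the mild EAE mice, and 2, 0, 25 and 0 for severe EAE mice 1, 2, 5 and 6. Per 1000 footprints these were 0.409, 0.0573 and 0.514 in naïve, 1.03, 0.615 and 0.819 in mild EAE and 0.749, 0, 0.784 and 0 in severe EAE. Over 10 mice the groups overlapped (difference 0.244, exact p = 0.367, adjusted 0.76), with EAE mice 2 and 6, which had 209 and 673 footprints in all, at 0. In the 8 mice with at least 1000 footprints EAE was 2.45-fold higher (0.8 ± 0.151, n = 5, against 0.327 ± 0.239, n = 3; exact p = 0.0179, the smallest possible, adjusted 0.0446). The value of EAE mouse 1 among them, 0.749, rests on 2 footprints in a list of 2670, so this separation depends on very few footprints. Per 1000 exonic footprints these 5 EAE mice lay between 0.885 and 1.23 and the naïve mice between 0.109 and 0.777, still without overlap (exact p = 0.0179, adjusted 0.0893). Over all 10 mice the exonic values overlapped, with EAE at 0 to 1.23 (exact p = 0.508, adjusted 0.825).

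The genes of complex IV fell into those covered in both conditions and those without any footprint in naïve mice. Cox4i1, which holds the regulatory nucleotide site of the enzyme, had 147, 0 and 130 nt in naïve, 81, 88 and 68 nt in mild EAE and 132, 0, 213 and 0 nt in severe EAE mice. Cox6b1, a subunit facing cytochrome c, had 136, 0 and 447 nt, then 183, 194 and 415 nt, and 397 nt in EAE mouse 5. Cox6a1 had 153, 115 and 153 nt in naïve mice, 62, 0 and 162 nt in mild EAE and 177 nt in EAE mouse 5. For these 3 genes the groups overlapped.

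Cox5b, a zinc-binding subunit on the matrix side, had no footprint in naïve mice, 293, 136 and 158 nt in mild EAE mice 3, 4 and 7 and 277 nt in EAE mouse 5. Cox6c had none in naïve mice, 195, 162 and 129 nt in mild EAE and 162 nt in EAE mouse 5. Cox5a, which contacts Cox4i1, had none in naïve mice, 123, 0 and 343 nt in mild EAE and 108, 0, 172 and 0 nt in severe EAE. Cox5b, Cox6c and Ndufaf5 were the 3 members whose mild EAE mice all lay above all naïve mice (4.11% of 73, background 2.59%). One member lay the other way, the second Atp5o annotation (1.37%, background 2.94%). Over all 10 mice the exact test per gene gave p = 0.25 for Cox5b, 0.2 for Cox6c and 0.342 for Cox5a before adjustment, as 3 or more EAE mice were at 0 for each.

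Markers of other cells were counted beside these values. The 10 microglia and macrophage markers gave 0.286 to 0.344 per 1000 footprints in naïve mice and 1.12 to 1.72 in EAE mice with at least 1000 footprints (exact p = 0.0179), but 0 to 5.94 in all 7 EAE mice (exact p = 0.267). Of these markers 2 of 10 were in at least 2 naïve mice, 8 in at least 2 mild EAE mice and 5 in at least 2 severe ones, and Aif1 was at 0 in all mice. The markers differed among themselves: Csf1r, Itgam, Cd68, Lyz2, C1qa and C1qc were at 0 in all 3 naïve mice and present in EAE mice, whereas Cx3cr1 held 2, 5 and 3 footprints in naïve, 0, 1 and 1 in mild EAE and 0, 0, 3 and 0 in severe EAE mice, and P2ry12 held 3, 0 and 2, then 0, 2 and 0, then 0, 0, 3 and 0. Of 7 lymphocyte markers matched, Ptprc alone was footprinted, in EAE mouse 3. The part of these cells in the values of complexes I and IV was not tested.

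**Figure D3:**
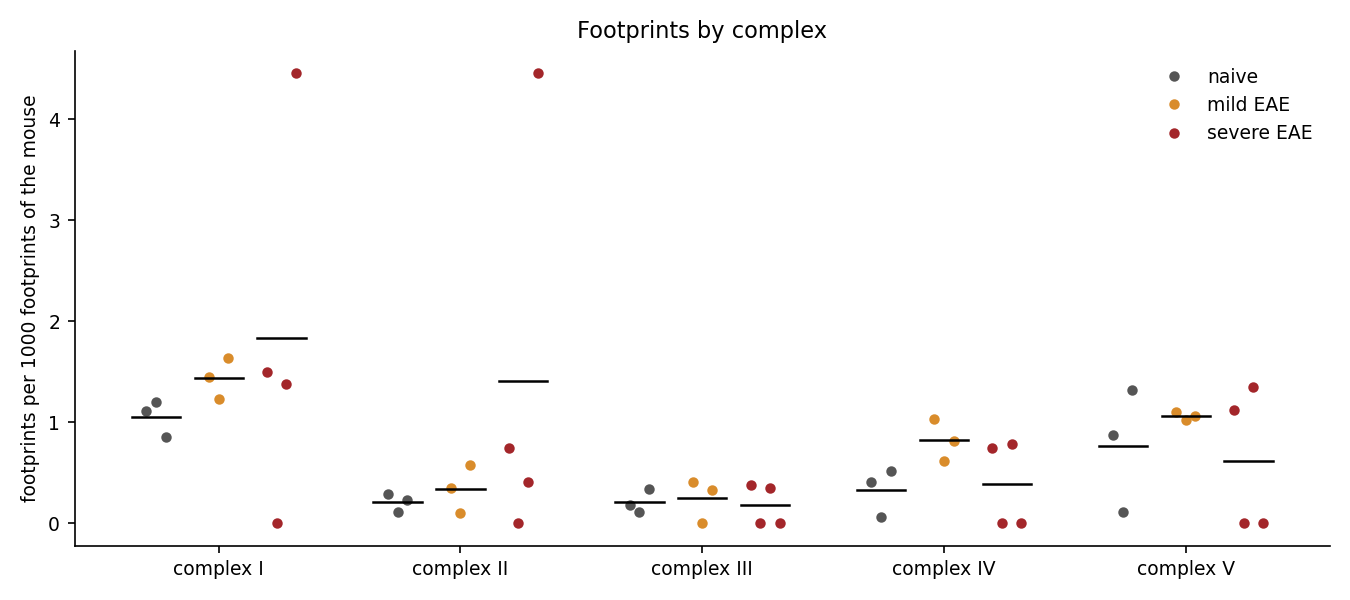
Points are mice and short lines group means of footprints per 1000 footprints of the same mouse, by complex, for 3 naïve, 3 mild EAE and 4 severe EAE mice. The second Atp5o annotation is left out, so complex V differs here from the values in the text that include it. In complex IV the 3 mild EAE mice (0.615 to 1.03) lie above the naïve mice (0.0573 to 0.514), and the high severe EAE points in complexes I and II are EAE mouse 6, with 3 footprints in each.

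Complex V, the ATP synthase, gave 1.40 ± 0.525 per 1000 footprints in naïve, 1.59 ± 0.248 in mild EAE and 0.744 ± 0.909 in severe EAE mice (EAE minus naïve -0.296, exact p = 0.608). The difference was 0.0405 without the second Atp5o annotation (exact p = 0.842) and 0.148 with it in the 8 mice with at least 1000 footprints (exact p = 0.607), so its sign was not stable. Of the 74 footprints on that annotation, 71 lay on no other member, and 67 of these lay over Itsn1, an endocytic scaffold gene. Atp5b, the catalytic beta subunit, was covered by 320, 134 and 538 nt in naïve, 674, 289 and 604 nt in mild EAE and 0, 0, 814 and 0 nt in severe EAE mice. It was found in all 6 naïve and mild EAE mice. Atp5a1, the alpha subunit, had 272, 0 and 273 nt, then 510, 142 and 555 nt, then 275, 0, 653 and 0 nt, and 6 mice shared a stretch of 115 nt in it. Atp5h, a stator subunit, was found in naïve mice 1 and 3 (145 and 137 nt) and in EAE mouse 5 (144 nt). The gamma subunit Atp5c1, the rotor shaft, was found in EAE mice 7 and 5 alone (335 and 526 nt).

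Across genes, the test of covered nt in EAE against naïve mice ran on 5481 protein-coding genes footprinted in at least 3 mice. None passed after Benjamini-Hochberg adjustment (background 0%), and 344 genes (6.28%) were below an exact p of 0.05 before it. The smallest p possible with these mice is 0.00833, so over 5481 genes adjustment passes none unless many reach it together. The absence of adjusted calls is therefore no evidence of equal coverage. Of 41 members tested, 0 passed either threshold. EAE mouse 2 was at 0 for every member, so no member higher in EAE could reach the smallest p. The median difference of EAE minus naïve was 9.48 nt over the members, 24 of them up and 17 down, against -33.1 nt over all genes tested, of which 2126 were up and 3354 down.

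Footprints on members lay almost wholly in exons. Without the second Atp5o annotation there were 488, of which 443 had their midpoint in coding sequence and 36 in a UTR, although 84.5% of the summed member spans lie outside member exons. Only 8 (1.64%) lay in no exon of any gene, against 24.5% of 117994 footprints on all protein-coding genes. The share was lower on members in 9 of 9 mice with at least 5 member footprints, with a difference of -22.1 ± 8.57 percentage points (SD, n = 9; two-sided exact sign-flip permutation p = 0.00391, the smallest possible, chosen after the data were seen). Ribosomal protein genes (1.42%) and glycolytic genes (1.63%) showed the same low share, so it was not particular to the respiratory chain. Median spans were 7419 nt for members, 3499.5 nt for ribosomal protein genes, 14153 nt for glycolytic genes and 17403 nt for all protein-coding genes. The part of span length in this share was not tested.

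The 8 intronic footprints were the 3 in Ndufaf5 in mild EAE mice, 2 in Ndufs4, and 1 each in Ndufaf6, Uqcrc2 and Ndufa10. Naïve mouse 2 held 3 of its 28 member footprints in introns (10.7%, 95% Clopper-Pearson interval 2.27 to 28.2, which covers counting error alone). With the second Atp5o annotation included, the intronic share was 6.86 ± 9.34% in naïve mice (n = 3) and 1.87 ± 2.01% in EAE mice (n = 6), a difference of -4.99 points (exact p = 0.202) that turned to 0.329 without naïve mouse 2.

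Many member footprints stopped where an exon stops. An end lay within 2 nt of an exon end for 87.9% of member footprints against 57.2% on all protein-coding genes, higher in 9 of 9 mice by 30.2 ± 12.9 points (exact sign-flip permutation p = 0.00391), and 101 footprints matched a whole exon. Glycolytic (88.6%) and ribosomal protein genes (84.2%) were alike in this too. The share is not independent of the intronic share, since a footprint deep in an intron has no exon end nearby. Exonic footprints alone were not compared. All 559 footprints on members had a median length of 88 nt and ran from 16 to 1131 nt. Because contigs were aligned with splicing, a contig that crosses a splice junction is cut at the exon end by the alignment itself. Neighbouring footprints of a gene in 1 mouse can therefore come from 1 contig and are not independent observations.

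**Figure D4:**
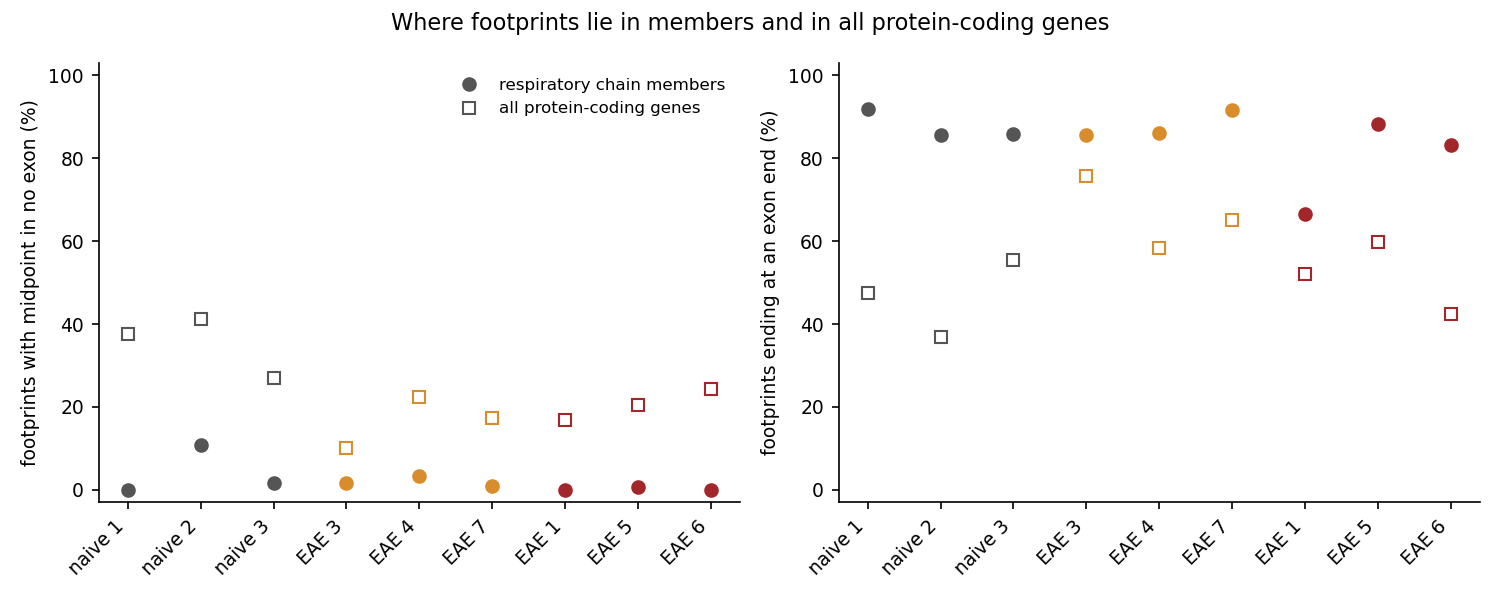
For each of 9 mice, filled circles give members without the second Atp5o annotation and open squares all protein-coding genes: the percentage of footprints with the midpoint in no exon (left) and with an end within 2 nt of an exon end (right). Members lie below all genes on the left and above them on the right in every mouse, and EAE mouse 2 is left out because it had no member footprint.

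The exact positions recurred between mice less often than the genes. Of 466 distinct intervals, 19 were identical in 2 or more mice. Stretches of at least 20 nt were nevertheless shared by at least 2 mice in 51 members, by at least 3 in 29, by at least 4 in 19 and by at least 6 in 3 (Cox4i1, Atp5a1 and Cox6b1). Within groups, 15 of the 18 members found in at least 2 naïve mice shared a stretch there, as did 22 of 25 for mild and 8 of 8 for severe EAE, again without the second Atp5o annotation.

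The UAG motif was sparse in member footprints. Searched as TAG on the strand of the gene, it occurred 3.27 to 12.9 times per 1000 nt in the 8 mice with at least 10 footprints that overlap no other gene, against 12.7 to 15.2 in windows 200 nt away on both sides. The member genes themselves hold 4.77 TAG per 1000 nt of coding sequence and 15.2 per 1000 nt of intron, and the windows lie largely in introns. The log2 ratio of footprint to window density was -1.57 ± 0.32 in EAE mice (n = 5) and -0.95 ± 0.72 in naïve mice (n = 3), a difference of -0.61 (exact permutation p = 0.161). Naïve mouse 2, with the most intronic footprints, had the ratio nearest to 0 (-0.15). AGGT, searched in the same way and able to overlap TAG as in TAGGT, differed by -0.24 (exact permutation p = 0.514).

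Other genes of oxidative metabolism set the members in context. The 13 subunits encoded by mitochondrial DNA were nearly empty: mt-Nd3 and mt-Nd5 each held 1 footprint, both in EAE mouse 3, and the other 11 had none. Cytochrome c (Cycs) was found in 3 mice and Cyc1, the cytochrome c1 of complex III, in EAE mice 4 and 7. Of 35 assembly factors outside the naming rule, 2 were in at least 2 naïve mice, 3 in at least 2 mild EAE mice and 1 in at least 2 severe ones, and Cox16 was found in 7 mice. The tricarboxylic acid cycle, which feeds the chain, had 7, 9 and 2 of 16 genes, among them 2-oxoglutarate dehydrogenase (Ogdh), found in 8 mice. Among 9 carriers and pores there were 1, 4 and 2, and the ADP/ATP carriers Slc25a4 and Slc25a5 were in 2 or more mild EAE mice and in no naïve mouse. Glycolysis had 12, 16 and 5 of 17 annotations (16 genes) and cytosolic ribosomal proteins 30, 64 and 32 of 102. Each of these nuclear lists counted more genes in mild EAE than in naïve mice, as the members did (19 and 26), whereas all protein-coding genes did not (4021 and 3808). In mice with at least 1000 footprints the glycolytic and tricarboxylic acid cycle genes overlapped between EAE and naïve mice (exact p = 0.25 and 0.268), as over all 10 mice (exact p = 0.683 and 0.942).

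**Figure D5:**
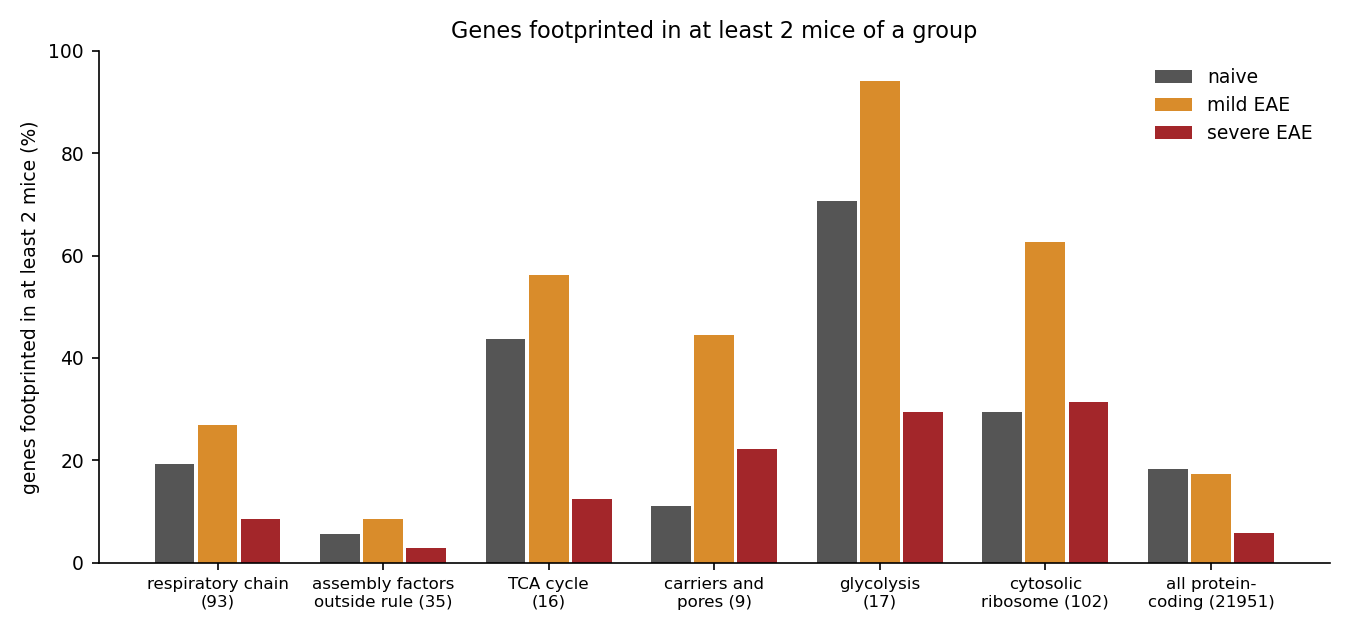
Bars starting at 0 give the percentage of genes in each list, with its number of genes in brackets, that were footprinted in at least 2 of the 3 naïve, 3 mild EAE or 4 severe EAE mice. Members without the second Atp5o annotation are at 19.4%, 26.9% and 8.6%, and all protein-coding genes at 18.3%, 17.3% and 5.86%.

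Copies of member genes elsewhere in the genome limit these counts. Of 93 member symbols, 38 have at least 1 annotated pseudogene at least 90% identical over 100 nt or more, 131 pseudogenes in all. Of these, 37 held a footprint in some mouse, from 0 in EAE mice 2 and 6 to 23 in EAE mouse 5, and a contig from a member transcript could be placed on either.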

How the data were processed

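The authors trimmed reads with bcl2fastq (version 2.19.0.316) and fastp, built contigs from them with rnaSPAdes, placed these on GRCm38 by spliced alignment in minimap2 (version 2.17), and used bedtools to subtract intervals seen in input or IgG libraries and to merge overlaps. The deposited files hold, for each of 10 immunoprecipitations, intervals with chromosome, start and end and no count or signal. The antibody clone is named differently in the labels and the methods. Input and IgG libraries were not analysed here.

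Intervals overlapping a gene span of GENCODE M21 (GRCm38.p6) by at least 1 nt were counted. The members and gene lists were chosen with earlier results of these data known. Genes named were members in at least 6 mice, members in at least 2 mice of 1 group and none of another, and members whose covered length did not overlap between naïve and mild EAE, at most 30, with others named in passing after their values were seen. Values of 2 genes are not reported here. Each mouse was 1 replicate, taken as a separate animal from the labels. Differences of means were tested by two-sided exact permutation over mice, with Benjamini-Hochberg adjustment in each family. On simulated data the per-gene test gave the smallest p for 200 of 200 seeded genes. These were raised in every EAE mouse above every naïve mouse, so the outcome was fixed. It checks the code and does not measure power in these data. The restriction to mice with at least 1000 footprints, the exonic denominator, the version without the second Atp5o annotation and the sign-flip tests were added after seeing the data. Alternatives changed footprint length, assignment, span, members, scale, merging, quantity and denominator, and left out each mouse. Whole-exon and exon-end matches allowed 2 nt. Sequences came from the reference genome by samtools (1.23.1), copies by BLAST+ (2.17.0), and statistics by Python 3.11.15, numpy 2.4.6, scipy 1.17.1 and matplotlib 3.10.9.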

Additional observations from a re-analysis of the deposited data

Results flagged for a closer look

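In severe EAE, 1 mouse stood apart from the other 3 in members footprinted: EAE mouse 5 had 51, and its gap to the nearest mouse was 0.843 of the group's range. The same mouse held 152 footprints in members, with a gap of 0.921 of the range. Complex II per 1000 footprints set EAE mouse 6 apart, at 4.46 and with a gap of 0.832 of the range, from 3 footprints. Of the 27 named members, 13 had a severe EAE mouse apart in covered length, and in all 13 it was EAE mouse 5. A gene covered in only 1 of the 4 severe EAE mice is always flagged, and EAE mouse 5 had the longest list. These flags are therefore no evidence beyond the length of that list. By Dixon's test for 4 samples, 8 summary measures were tested. Chance flags about 1 in 20 such groups where values are normally distributed, which need not hold for lists of such unequal length.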

How the results depend on the processing

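Of 139 values under alternatives other than leaving out a mouse, 123 kept their direction and their side of 0.05. Those that turned were in comparisons without a call. Per 1000000 mapped reads, as the study tabulates them, mild EAE minus naïve became -0.801 for members and -2.61 for footprints. In mice with at least 1000 footprints, severe EAE minus naïve became 6.83 members and 26.3 footprints, severe minus mild EAE 8.0 footprints, complex III 0.0811 and complex V 0.148 per 1000, and complexes I (0.381) and IV (0.473) passed 0.05. Severe minus mild EAE per 1000 turned with footprints over 1 gene only (-0.571), spans extended by 1000 nt (-0.158), log2 values (-0.36) and covered nt (-0.357). Complex III turned with covered nt (0.0961) and complex V without the second Atp5o annotation (0.0405).

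Naïve and severe EAE mice share the numbers 1 and 2, which name different animals and do not pair them. With the number as a replicate block, severe minus naïve was -16.0 members, -45.0 footprints and -0.71 per 1000. Leaving out 1 mouse gave -2.17 to 36.8 for footprints in mild EAE minus naïve, turning without EAE mouse 7, and -49.7 to 1.0 in severe minus naïve, turning without EAE mouse 2. Footprints per 1000 ranged from -0.122 to 2.85 in severe minus naïve and from -1.35 to 1.62 in severe minus mild EAE, turning without EAE mouse 6 in both and without EAE mouse 4 in the second. Complex III ranged from -0.0505 to 0.0636, turning without naïve mouse 3 or EAE mouse 2, 4 or 6, and the intronic share from -8.42 to 0.329, turning without naïve mouse 2. The log2 UAG difference ranged from -0.91 to -0.21, with an exact permutation p of 0.0476 without naïve mouse 3 (n = 7). The cause was not tested. Genes below an unadjusted exact permutation p of 0.05 numbered 171 to 655 without 1 mouse, the most without EAE mouse 5, against 344, and 0 passed adjustment in each.

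Lists of intervals without counts give presence and length alone, and 3 naïve mice set the smallest p.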
